A study of Mus musculus with 14 samples.

Results

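The data described here are the H3K4me1 sites at the promoters of long non-coding RNA (lncRNA) genes in NG3 cells. Promoters were the windows of 1 kb on either side of the most 5′ transcription start site (TSS) of each gene in GENCODE release M21 of the mouse genome, build mm10 (GRCm38.p6). Genes of 4 GENCODE types were taken as members, namely lincRNA, antisense, processed_transcript and bidirectional_promoter_lncRNA. They numbered 9793 of 55413 annotated genes, with 5854 lincRNA, 2959 antisense, 790 processed_transcript and 190 bidirectional_promoter_lncRNA genes.

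NG3 is a single clone of immortalized mouse embryo fibroblasts (iMEFs) carrying floxed Ash2l alleles and a tamoxifen-inducible Cre recombinase. Its endogenous Ash2l was inactivated by deletion of exon 4, and human ASH2L fused to a degradable FKBP domain and an HA2 tag (FKBP-HA2-ASH2L) was expressed from a lentivirus, in control as well as treated cells. dTAG-13, a PROTAC that directs the FKBP fusion to degradation, was added for 30 min or for 2, 4, 8 or 16 h, and control cells received none. H3K4me1 ChIP-seq was performed in 2 replicates per condition, giving 12 ChIP libraries, with 1 input from control cells and 1 from cells treated for 16 h. The sites form 1 list of 160144 broad peaks, of which 160108 lie on the chromosomes. The list gives a start and an end for each site and does not say in which libraries or at which times it was found. No difference between control and dTAG-13 could therefore be computed from it, no replicate error exists and no test between conditions was made. A separate list of sites changed at each time, which the paper describes, was not used here. Of the 6 conditions, 5 were treated with dTAG-13. After ASH2L loss the paper reports gains of H3K4me1 that lay nearly all at promoters. A site may thus have been called from treated cells only, and the shares below cannot be taken as those of control cells. Intervals given with shares are 95% Wilson intervals and cover the counting of promoters only.

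LncRNA genes are transcribed by RNA polymerase II, and many start close to, and in the opposite direction from, a protein-coding gene, whereas lincRNAs lie between genes. H3K4me1, monomethylation of lysine 4 of histone H3, is known from enhancers and from the nucleosomes that flank active start sites. KMT2 methyltransferases place it, and ASH2L is a core subunit of the KMT2 complexes.

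The promoters of 6 lncRNAs are printed first because they show the arrangements that recur in the counts. Each sequence runs 5′ to 3′ on the strand of the gene from base -250 to base 50 around the TSS in GRCm38.p6, from the reference genome, and capitals mark the CpG dinucleotides. The first pair are CpG island promoters with sites. The start of Dancr, a snoRNA host that is widely expressed, lies at chr5:74092810-74093109 (plus strand). It holds 18 CpGs and 0 of its 300 bases were under a site, since 1 site ended 284 bp upstream of the TSS and the next began 89 bp downstream. The start of Fendrr, a lncRNA of lateral mesoderm next to Foxf1, lies at chr8:121083061-121083360 (minus strand). All 300 bases, with 31 CpGs, were under a single site of 3549 bp.
Dancr: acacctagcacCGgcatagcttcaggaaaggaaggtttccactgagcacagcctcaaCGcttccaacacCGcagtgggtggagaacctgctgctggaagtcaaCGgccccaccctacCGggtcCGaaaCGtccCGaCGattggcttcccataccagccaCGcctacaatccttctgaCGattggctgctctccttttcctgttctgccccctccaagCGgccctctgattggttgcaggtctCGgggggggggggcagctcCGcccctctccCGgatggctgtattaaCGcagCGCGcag
Fendrr: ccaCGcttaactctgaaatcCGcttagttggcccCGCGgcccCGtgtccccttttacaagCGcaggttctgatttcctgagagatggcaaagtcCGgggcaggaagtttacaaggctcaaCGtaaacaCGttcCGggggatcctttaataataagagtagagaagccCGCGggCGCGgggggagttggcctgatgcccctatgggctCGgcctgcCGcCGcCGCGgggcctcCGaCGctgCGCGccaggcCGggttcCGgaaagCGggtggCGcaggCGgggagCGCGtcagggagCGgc

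The next pair had no CpG island and yet lay wholly under a site. Trp53cor1, known as lincRNA-p21 and transcribed divergently from Cdkn1a, starts at chr17:29079130-29079429 (minus strand) with 6 CpGs. Lncpint, a target of p53, starts at chr6:31220439-31220738 (minus strand) with 15 CpGs.
Trp53cor1: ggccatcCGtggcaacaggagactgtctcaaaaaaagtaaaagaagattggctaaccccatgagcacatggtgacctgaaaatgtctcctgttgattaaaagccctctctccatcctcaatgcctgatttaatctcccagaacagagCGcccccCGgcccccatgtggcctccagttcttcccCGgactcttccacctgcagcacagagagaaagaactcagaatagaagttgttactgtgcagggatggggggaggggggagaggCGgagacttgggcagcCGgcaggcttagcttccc
Lncpint: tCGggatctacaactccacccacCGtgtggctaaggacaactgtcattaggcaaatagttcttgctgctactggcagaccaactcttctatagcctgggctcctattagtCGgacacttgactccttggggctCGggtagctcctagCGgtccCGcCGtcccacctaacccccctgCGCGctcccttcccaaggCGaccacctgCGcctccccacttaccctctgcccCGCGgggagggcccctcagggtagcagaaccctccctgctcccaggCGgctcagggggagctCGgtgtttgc

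The last pair had neither an island nor a site. Hotair, a lncRNA of the HoxC cluster, starts at chr15:102947681-102947980 (minus strand) and had 4 CpGs. Rian, an imprinted lncRNA that hosts snoRNAs, starts at chr12:109603690-109603989 (plus strand) and had 0 CpGs. The nearest site lay 143808 bp from the TSS of Rian.
Hotair: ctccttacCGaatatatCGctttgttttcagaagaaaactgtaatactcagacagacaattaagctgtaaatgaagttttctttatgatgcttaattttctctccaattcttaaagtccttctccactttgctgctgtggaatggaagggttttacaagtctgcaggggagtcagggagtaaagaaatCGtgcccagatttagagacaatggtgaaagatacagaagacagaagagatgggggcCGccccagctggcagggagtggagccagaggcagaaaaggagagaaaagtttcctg
Rian: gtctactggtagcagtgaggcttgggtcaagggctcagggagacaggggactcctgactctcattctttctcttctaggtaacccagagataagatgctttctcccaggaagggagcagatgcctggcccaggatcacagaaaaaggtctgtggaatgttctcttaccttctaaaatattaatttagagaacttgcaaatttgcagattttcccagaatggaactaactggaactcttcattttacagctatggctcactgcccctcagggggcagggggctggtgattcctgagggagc

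H3K4me1 sites overlapped 3845 of the 9793 lncRNA promoters, or 39.3% (38.3 to 40.2). Among the promoters of all annotated genes the share was 38.8%, so lncRNA promoters as a whole sat at the background. Protein-coding promoters stood above it, with 63.9% of 21938 (63.2 to 64.5). Chromosome Y holds 0 sites and 552 of the lncRNA genes, 549 of them lincRNAs. Without chromosome Y the share of lncRNA promoters was 41.6% of 9241, and that of all genes 40%. The TSS base itself was covered at 2485 lncRNA promoters, which is 25.4% of them against 23.2% of the promoters of all genes (26.9% and 23.9% without chromosome Y). The 4 gene types differed widely around this average. Sites were found at 30.8% of lincRNA promoters (29.6 to 32.0, or 33.9% without chromosome Y) and at 47.6% of antisense promoters (45.8 to 49.4). The shares were 58.2% for processed_transcript (54.8 to 61.6) and 92.6% for bidirectional_promoter_lncRNA genes (88.0 to 95.6), and the intervals of the 4 types did not overlap.

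The sites at lncRNA promoters made up a small part of all sites and were of moderate width. They were 4750 distinct sites, or 2.97% of all sites on the chromosomes. Of these, 1871 (39.4%) also reached a protein-coding promoter and 121 reached more than 1 lncRNA promoter. A single site was present at 2899 promoters, 2 sites at 866 and 3 sites at 80. The widest site at each promoter had a median width of 1374 bp, compared with 1576 bp at protein-coding promoters. It was 1185 bp at lincRNA and 1522 bp at antisense promoters.

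CpG islands divided the lncRNA promoters within every gene type. CpG islands, stretches rich in CpG that mark most promoters of broadly used genes, overlapped the windows of 1821 lncRNA genes. Sites were found at 1596 of these, or 87.6% (86.1 to 89.1), compared with 90.3% of the island promoters of all genes. Of the 7972 lncRNA promoters without an island, 2249 had a site, or 28.2% (27.2 to 29.2; 30.3% without chromosome Y), compared with 20.1% for all genes without an island. The TSS base was covered at 61.5% of island lncRNA promoters and 17.1% of the others, with 56.4% and 11.1% over all genes. Protein-coding promoters gave 93.0% of 11830 with an island and 29.8% of 10108 without. Within islands, the share ran from 84.1% for antisense (81.4 to 86.4) and 88.7% for lincRNA (85.6 to 91.2) to 98.2% for bidirectional_promoter_lncRNA genes (94.9 to 99.4). LincRNA promoters without an island had the lowest share, 25.5% (24.4 to 26.7, or 28.4% without chromosome Y). Antisense promoters without an island had 33.2% (31.3 to 35.3). The order of lincRNA and antisense promoters changed with distance to a coding TSS, as given below.

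**Figure D1:**
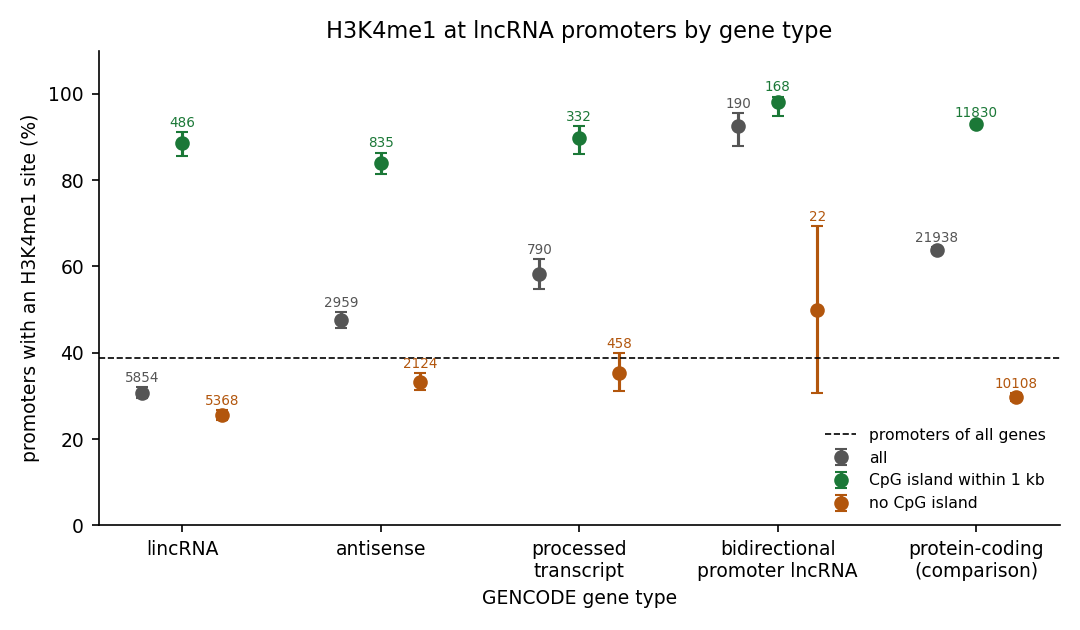
Share of promoters with at least 1 H3K4me1 site (y axis, percent) by GENCODE gene type (x axis), for all promoters of the type (grey), those with a CpG island (green) and those without (orange). Bars are 95% Wilson intervals, the number above each point is the number of promoters and the dashed line is the share over the promoters of all genes, 38.8%. The green points lie at 84.1% or above in every type, and the grey points rise from 30.8% to 92.6% across the lncRNA types.

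The same order held when CpG content was graded without a call of islands. Among the lncRNA promoters off chromosome Y the share with a site was 12.2% where the ratio of observed to expected CpG was under 0.1 and 90.8% where it was 0.6 or above. The rise was smaller and less even among those without an island and over 5 kb from a coding TSS. There the share was 11.7% under 0.1, 35.8% at 0.3 to 0.4, 32.4% of 284 at 0.4 to 0.6 and 45.5% of 11 at 0.6 or above. Of all lncRNA promoters off chromosome Y, those without a site had a median ratio of 0.21, compared with 0.35 for those with a site. The share of repeat-masked bases moved the other way. Its median was 14.2% at promoters with a site and 20.9% at those without. Among promoters without an island and over 5 kb from a coding TSS, the share with a site was 32.9% of 910 where repeats covered under 10% of the window and 7.06% of 496 where they covered 50% or more. Reads in repeats are hard to place, and the part of repeats in these shares was not tested.

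Distance to a protein-coding start site also ordered the lncRNA promoters. Sites were found at 82.8% of the 1735 promoters whose TSS lay within 1 kb of the TSS of a protein-coding transcript (80.9 to 84.5). The share was 47.4% of 851 at 1 to 5 kb (44.0 to 50.7), 33.5% of 3218 at 5 to 50 kb (31.9 to 35.1) and 23.3% of 3989 beyond 50 kb (22.0 to 24.6; 26.5% without chromosome Y). Islands and distance moved together, since 1322 of the promoters within 1 kb but 101 of those beyond 50 kb held an island. Among island promoters alone the share fell from 92.4% within 1 kb to 67.3% beyond 50 kb (57.7 to 75.7). Without an island and without chromosome Y it fell from 52.2% to 25.3% (23.9 to 26.8). In these promoters lincRNAs were not below antisense genes in every class. LincRNA and antisense shares were 64.0% and 50.0% within 1 kb, and 32.4% and 29.5% at 5 to 50 kb. They were 35.7% and 39.2% at 1 to 5 kb, and 24.3% and 28.6% beyond 50 kb.

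**Figure D2:**
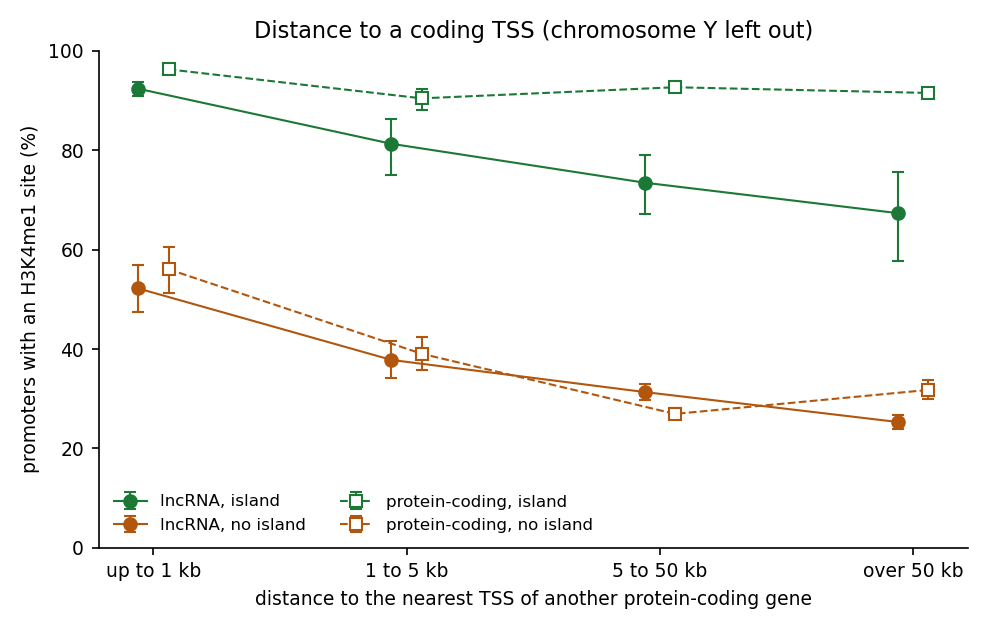
Share of promoters with an H3K4me1 site (y axis, percent) by distance to the nearest TSS of another protein-coding gene (x axis) for lncRNA (filled circles, solid lines) and protein-coding promoters (open squares, dashed lines), with a CpG island (green) or without (orange). Bars are 95% Wilson intervals and chromosome Y is left out. Island promoters of lncRNAs fall from 92.4% to 67.3% while those of protein-coding genes stay between 90.4% and 96.3%.

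Island promoters far from other coding genes also differed between lncRNA and protein-coding genes. Beyond 5 kb, 223 of 312 island promoters of lncRNAs had a site, or 71.5% (66.2 to 76.2), compared with 92.2% of 8664 protein-coding island promoters (91.6 to 92.8). Within this set lincRNAs reached 81.3% of 171 (74.8 to 86.4) and antisense genes 46.7% of 75 (35.8 to 57.8), and these intervals did not overlap. Where the TSS lay inside a protein-coding gene, 34 of 72 had a site (47.2%, 36.1 to 58.6). Outside coding genes the count was 189 of 240 (78.8%, 73.1 to 83.5). Antisense genes supplied 52 of the 72 starts inside a coding gene, and 20 of these had a site (38.5%, 26.5 to 52.0). Processed_transcript promoters did not show the contrast, with 10 of 13 inside and 39 of 53 outside. Among starts outside coding genes, lincRNAs had a site at 82.3% of 164 (75.8 to 87.4). Antisense genes had one there at 65.2% of 23 (44.9 to 81.2), and these intervals overlapped. Promoters beyond 5 kb without an island did not show such a gap between lncRNA and protein-coding genes. Without chromosome Y, 28.1% of the 6344 lncRNA promoters had a site (27.0 to 29.2), and 28.2% of 8634 protein-coding promoters (27.3 to 29.1). That equality joined opposite differences, with 31.3% for lncRNAs and 26.9% for protein-coding genes at 5 to 50 kb, and 25.3% and 31.8% beyond 50 kb.

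For those 6895 distant promoters without an island, chromosome Y included, the site frequency of the surroundings was measured by moving each window. Sites overlapped 25.9% of the windows at the TSS (24.8 to 26.9), compared with 18.6% to 19.7% of windows moved by 10 or 50 kb to either side. Their coverage peaked at 15.7% of TSSs in the first 100 bp and lay at 7.77% and 7.93% at 9 to 10 kb upstream and downstream. Over all lncRNA promoters, 39.3% at the TSS compared with 20.4% to 21.4% in the moved windows. At distant island promoters the values were 71.5% and 23.1% to 27.2%.

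Close to a coding start, the lncRNA and the coding promoter nearly always shared their state. Their windows share much of their sequence and a single site can count for both, so this agreement was largely set by the definition. Of the 1735 lncRNA promoters within 1 kb, both windows had a site at 1432 and neither at 292. The coding window alone had a site at 7. The lncRNA window alone had a site at 4, which are named here after their values were seen. They are AC025794.1 beside Chrm1, Gm29362 beside Alkbh1, Gm43050 beside Tbx5, the T-box factor of heart and forelimb, and Gm48695 beside Nin. By orientation, 773 of 936 divergent lncRNAs had a site (82.6%), as did 612 of 728 that overlapped the coding gene on the opposite strand (84.1%) and 51 of 71 on the same strand (71.8%). The 14 bidirectional_promoter_lncRNA genes without a site, also named after the fact, included 3 with an island, namely AC109138.11 beside Rad9a, Gm26704 beside Fzd6 and Gm44140 beside Atf7ip.

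Position relative to the TSS differed between lncRNA and protein-coding promoters. Sites covered the TSS at 64.6% of lncRNA promoters with a site (63.1 to 66.1) and at 61.8% of protein-coding ones (61.0 to 62.6). This joined opposite differences, with 70.2% and 60.9% at promoters with an island and 60.7% and 65.1% at those without. Sites on both sides of a free TSS were found at 9.78% (8.88 to 10.8) compared with 21.5% (20.8 to 22.2). Fewer of the lncRNA promoters had an island, and the gap was smaller within each class, 17.2% and 25.4% with an island and 4.54% and 7.003% without. A site only upstream was seen at 11.0% of lncRNA promoters and at 3.08% of protein-coding promoters. A site only downstream was seen at 14.6% and 13.6%. Where both sides were marked, the free stretch had a median length of 468 bp at 376 lncRNA and 423 bp at 3009 protein-coding promoters. Averaged over the window, the 1 kb downstream of lncRNA starts was covered 1.05 percentage points more than the 1 kb upstream. At island promoters this difference was 0.23 points for lncRNAs and 24.1 points for protein-coding genes.

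**Figure D3:**
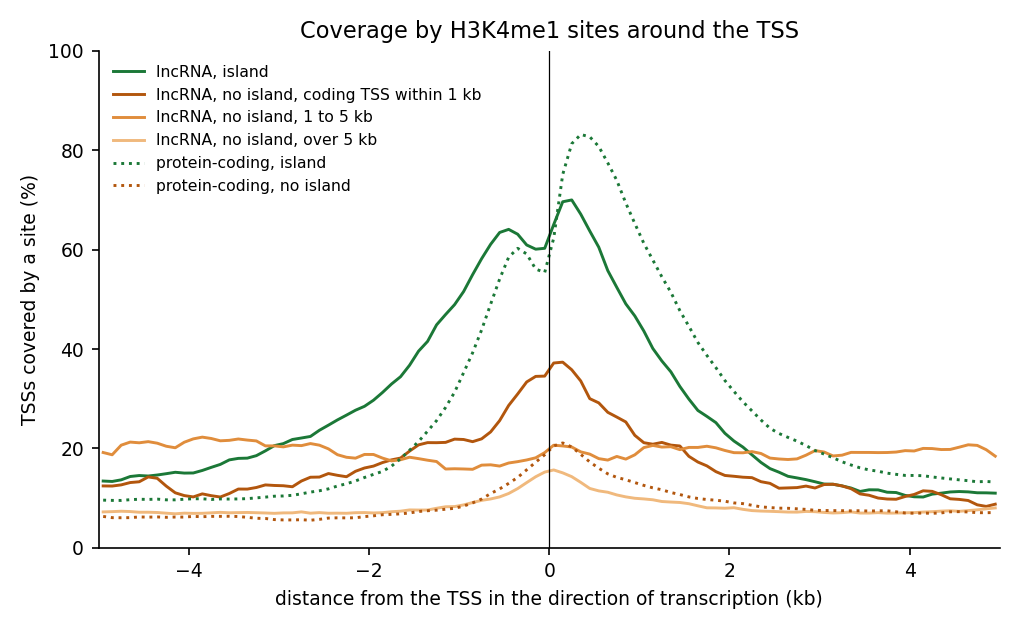
Share of TSSs covered by an H3K4me1 site (y axis, percent) in bins of 100 bp against distance from the TSS in the direction of transcription (x axis, kb) for lncRNA (solid) and protein-coding promoters (dotted), with a CpG island (green) or without (orange shades, split for lncRNAs by distance to a coding TSS). The green solid line rises to 64.1% upstream and 70.0% downstream, whereas the green dotted line reaches 60.3% upstream and 83.2% downstream.

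The near symmetry of island lncRNA promoters was a mean over unlike orientations. The 714 divergent island promoters within 1 kb of a coding TSS were covered more upstream, towards the coding gene, by 13.2 points. Their coverage reached 81.8% in the bin that starts 700 bp upstream, dropped to 56.4% just upstream of the TSS and rose to 72.2% downstream. Of the 668 with a site, 183 had sites on both sides of a free TSS (27.4%, 24.1 to 30.9). The 568 that overlapped the coding gene on the opposite strand were on average covered more downstream, by 6.57 points, and without a dip at the TSS. This mean joined opposite signs, with a difference of -13.7 points for the 87 within 100 bp of the coding TSS and 19.9 points for the 223 beyond 500 bp. Their TSS lay under a site in 435 of 517 with a site (84.1%, 80.7 to 87.0). The 312 island promoters beyond 5 kb were covered more downstream, by 9.35 points. In that last set the pattern had the direction of protein-coding promoters, with lower coverage throughout the promoter.

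**Figure D4:**
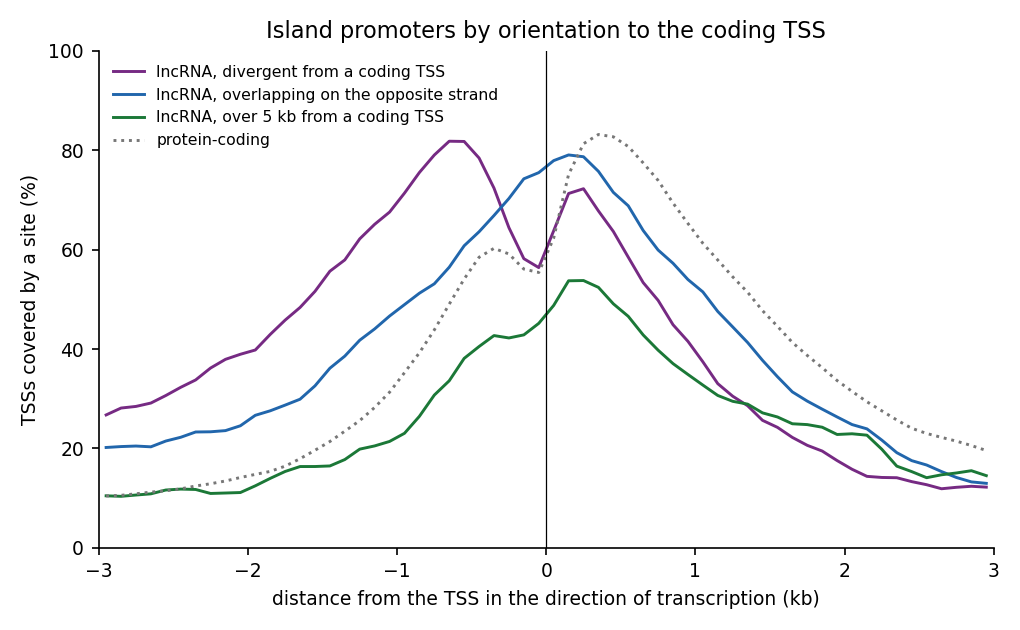
Share of TSSs covered by an H3K4me1 site (y axis, percent) in bins of 100 bp against distance from the TSS in the direction of transcription (x axis, kb) at CpG island promoters of lncRNAs that are divergent from a coding TSS within 1 kb (purple), overlap a coding gene within 1 kb on the opposite strand (blue) or lie over 5 kb from a coding TSS (green), and of protein-coding genes (dotted grey). The purple line has its maximum of 81.8% upstream and dips to 56.4% at the TSS, where the blue line stays at 75.5% or above.

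Short motifs in the bases from -250 to 50 were counted on both strands as a description of the sequences. GGGCGG, the core of the GC box bound by Sp1, was present in 32.2% of lncRNA promoters with a site and 7.65% of those without, and in 22.7% of the promoters of all genes. Much of that contrast lay between island and other promoters, since the shares were 61.4% and 46.7% among island lncRNA promoters with and without a site. TGACTCA, the AP-1 motif, behaved otherwise. It was present in 11.1% of the 1783 distant promoters without an island that had a site (9.73 to 12.6), in 5.66% of the 4561 without a site off chromosome Y (5.02 to 6.37) and in 5.45% of the promoters of all genes without an island. TATAAA was less common at lncRNA promoters with a site, 10.2% compared with 15.5% without, chromosome Y included, and 17.1% over all genes. Among island lncRNA promoters the shares were 5.76% with a site (4.72 to 7.02) and 3.56% of 225 without (1.81 to 6.86). These intervals overlapped. CCAAT was present in 32.7% with a site and 42.5% without, chromosome Y included, and in 38.4% over all genes. Among island lncRNA promoters the shares were 31.3% and 33.3%. Among distant promoters without an island, off chromosome Y, they were 33.4% and 39.3%. The letters CACGTG, the E-box, were found in 7.65% of lncRNA promoters with a site and in 4.56% without, and CCGGAAGT, an ETS motif, in 2.99% and 0.91%. Their shares over all genes were 5.37% and 2.37%. Among island lncRNA promoters CACGTG was present in 9.90% with and 9.33% without a site. In the printed promoters, Dancr held CCAAT 3 times on the reverse strand, at bases -112, -71 and -23, inside the stretch between its 2 sites, and GGGCGG once. CCAAT was also found in Trp53cor1 and in Hotair, and GGGCGG in Hotair, which had no site.

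The named lncRNAs were read by function. Among 17 snoRNA hosts, genes whose introns carry small nucleolar RNAs, 16 had a site and only the imprinted Snhg14 had none. All 16 had an island, and 87.6% of lncRNA island promoters had a site, so the count of hosts was near that share. Their sites lay on both sides of a free TSS at 11 of the 16, compared with 17.2% of island lncRNA promoters with a site, only downstream at 2 and across the TSS at 3, namely Snhg18, Snhg20 and Gas5. Gas5, a growth-arrest transcript divergent from Zbtb37 by 138 bp, lay under a site of 1759 bp. Snhg1, Snhg5 and Snhg6 had short sites on each side of the start, as Dancr did. Of 10 miRNA hosts 9 had a site, including Mir17hg, the host of the miR-17 cluster, with a site of 2055 bp across its TSS, and Mir155hg, the host of miR-155, with 2773 bp. Mir124-2hg had none. With an island 5 of 5 hosts had a site and without 4 of 5, beside 87.6% and 28.2% over all lncRNA promoters.

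All 5 lncRNAs of nuclear bodies or wide expression that were found in the annotation had an island and a site, beside 87.6% over all island lncRNA promoters. Malat1, which is retained in nuclear speckles (chr19:5795690-5802672, minus strand), had its TSS free. A site of 17097 bp ended 253 bp upstream of it, and a site of 203 bp began 503 bp downstream. Neat1, the scaffold of paraspeckles, lay under a site of 2856 bp and held 11 sites along the gene. Tug1, divergent from Morc2a by 86 bp, had its TSS covered. 2900097C17Rik had 1 site on each side of a free TSS, and Miat 1 site downstream. The 7 lncRNAs of p53 and proliferation all had a site, among them Trp53cor1 (2280 bp) and Lncpint (2059 bp) without an island. The other 5 had one, and the shares over all lncRNA promoters were 87.6% with and 28.2% without an island. Pvt1, the neighbour of Myc, had its TSS under a site of 3653 bp and 108 sites within its 340111 bp.

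Of 11 lncRNAs of the Hox clusters, which lie among the genes that set position along the body axis, 8 had a site and 7 had the TSS covered. Hottip, Halr1, Hoxa11os, Hoxaas2, Hoxaas3, Haglr and Hoxd3os1 were covered, and Hotairm1 had a site downstream. Hoxa11os had all 2001 bases of its window under a site. Hotair, Hoxb3os and Hoxb5os had none. Of the 8 Hox lncRNA promoters without an island, 5 had a site, compared with 28.2% over all lncRNA promoters without an island. Among 10 lncRNAs of mesenchyme and heart, 6 had a site, 4 of 5 with an island and 2 of 5 without, near the shares over all lncRNA promoters. Carmn, the host of miR-143 and miR-145 in smooth muscle, lay without an island in a site of 15102 bp that ran through most of the gene. Fendrr, Emx2os and Tbx3os1, each beside a developmental transcription factor gene, were covered at the TSS, Foxd2os had sites on both sides and Dnm3os a site downstream. Hand2os1 had its nearest site 2624 bp away and Mhrt, the antisense partner of Myh7, 22007 bp away. Wt1os and Meg3 also had none. Wt1os starts 19 bp from Wt1 and had an island.

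The 11 neural lncRNAs found had a site in 3 cases, Six3os1, Mir124a-1hg and Mir9-3hg, each with an island and with the TSS covered. None of the 6 without an island had one, beside 28.2% over all lncRNA promoters without an island. With an island 3 of 5 had a site, beside 87.6%. Pantr1, divergent from Pou3f3 by 926 bp, and Nkx2-2os had an island and no site. The nearest site to Pantr1 was 155862 bp away. Rmst had its nearest site at 1940 bp and Sox2ot at 13673 bp, with 17 sites elsewhere along the gene. The list for blood, immune and stem cells had a site at 14 of 35, beside 39.3% over all lncRNA promoters. Its 27 Platr genes, a series named for transcripts associated with pluripotency, had a site in 7 cases, 6 of them among the 26 without an island, beside 28.2% over all lncRNA promoters without an island. The 7 genes of the list that are neither Platr genes nor Lncenc1 were set apart after the values were seen. Of these, 6 had a site and Mirt1 had none. With an island 2 of 2 had a site and without 4 of 5, beside 87.6% and 28.2% over all lncRNA promoters. Lncenc1, a transcript of naive embryonic stem cells, had its TSS under a site of 2451 bp. Promoters of protein-coding cell type markers were checked against the fibroblast label. Sites were present at 12 of 14 fibroblast markers, all but Col3a1 and Lum, and at 0 of 4 pluripotency markers, but also at 5 of 5 epithelial, 3 of 4 endothelial, 3 of 4 neural and 1 of 5 blood markers, beside 63.9% over all protein-coding promoters. With any annotated TSS counted, sites were present at 12 of 14 fibroblast, 5 of 5 epithelial, 4 of 4 endothelial, 3 of 4 neural, 2 of 5 blood and 1 of 4 pluripotency markers. Fibroblast markers thus had a site more often than those of blood and pluripotent cells, but not than those of epithelial cells.

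Among imprinted lncRNAs, H19, Airn, Kcnq1ot1 and Nespas had a site, and Meg3, Rian, Mirg and Snhg14 had none. With an island 2 of 2 had a site and without 2 of 6, beside 87.6% and 28.2% over all lncRNA promoters. None had the TSS covered, compared with 64.6% of all lncRNA promoters with a site. On chromosome X, where 45 of 176 lncRNA promoters had a site (25.6%, 19.7 to 32.5), Jpx, Ftx and Firre were among them. Xist had its nearest site 1069 bp from the TSS, just outside the window, and Tsix 5998 bp. The share was lower on chromosome X than on the autosomes, which ranged from 34.3% (chromosome 14) to 48.6% (chromosome 17). It was lower both with an island (75.0% of 36, 58.9 to 86.2, compared with 87.9% of 1785, 86.3 to 89.3) and without (12.9% of 140, 8.29 to 19.4, compared with 30.6% of 7280, 29.6 to 31.7). The intervals were apart in both cases, by little with an island, where chromosome X held few promoters. Protein-coding promoters had 78.5% and 20.1% on chromosome X and 93.4% and 31.0% on the autosomes.

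Opposite-strand genes, named after a protein-coding partner with the ending os, numbered 282, and 155 had a site (55.0%, 49.1 to 60.7), beside 39.3% over all lncRNA promoters and 47.6% over antisense ones. With an island the count was 87 of 103, and without 68 of 179, beside 87.6% and 28.2%. In the 90 pairs whose TSSs lay up to 2 kb apart, both promoters had a site in 76, the coding promoter alone in 1 and neither in 13. In the other 192 pairs, where the windows do not overlap, the lncRNA promoter had a site in 67 of the 147 pairs whose coding promoter had one (45.6%, 37.7 to 53.6). Where the coding promoter had none, it was 12 of 45 (26.7%, 16.0 to 41.0), and the intervals overlapped.

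The widest sites at lncRNA promoters were far above the median of 1374 bp. Zmiz1os1, opposite Zmiz1 on chromosome 14, started within a site of 42441 bp (chr14:25459369-25501809), and Pmepa1os, divergent from Pmepa1 by 165 bp, had one of 26685 bp. Gm27019 (19179 bp), Malat1 (17097 bp), Gm14285 (16753 bp), Gm47766 (16559 bp) and 2810430I11Rik (15404 bp) followed. Carmn (15102 bp), Gm11959 (14644 bp) and BC048644 (13988 bp) completed the 10 widest. Of these, 2810430I11Rik lies beside the collagen gene Col5a1 and Gm47766 beside the actinin gene Actn1. Among promoters without an island and over 5 kb from a coding TSS, the widest sites were those of Gm27019, Carmn and Gm11959. Gm28809 (11785 bp), Gm34648 (10972 bp) and Gm37855 (10606 bp) came next, and Gm27240, 3930402G23Rik, AC132148.1 and Gm30873 had 10167, 9371, 9094 and 9062 bp. Not all of the widest sites covered the TSS. Those of Pmepa1os, Gm27019 and Gm11959 ended 848, 869 and 961 bp upstream of it and reached only the outer part of the window.

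Of the 5948 lncRNA promoters without a site, 1696 (28.5%) had a site elsewhere in the gene and 139 had one at another annotated TSS of the gene. Without chromosome Y, the nearest site lay at a median distance of 9661.5 bp from the TSS of the 5396 genes. It was over 1 and up to 2 kb away, just past the window, for 642, over 10 kb away for 2658 and over 100 kb away for 756.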

How the data were processed

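H3K4me1 ChIP-seq of NG3 cells was analysed (12 ChIP libraries and 2 inputs). For the deposited peaks, the authors used Trim Galore for trimming, BWA for alignment to the mm10 genome, Samtools for filtering, Picard for merging the replicates and Macs in its broad mode. Tool versions, the threshold of the peak caller and how peaks of different times were combined are not given in the sources used here. The deposited table holds the start and end of each peak in bases and no value per library, so the depth behind the sites could not be measured. The methods of the study state a planned minimum of reads per ChIP sample, which the table cannot check. The 36 sites on scaffolds were left out. A promoter counted as having a site when at least 1 bp overlapped. CpG islands were called on repeat-masked sequence by the UCSC rule (score 17 per CpG and -1 per other base, at least 200 bp, over 50% GC, observed to expected CpG above 0.6), which gave 16204. GENCODE M21 was used, whereas the authors name another release. Python 3.11.15 and numpy 2.4.6 were used. On simulated data, coverage, overlap and distance were right in all 4000 windows and 46 of 50 islands were recovered within 60 bp. Shares carry Wilson intervals, promoters that share a site are not independent, and moved windows were placed 10 or 50 kb away without excluding other promoters.

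Named genes were fixed lists by function, symbol patterns (Snhg, Mir with hg, os) and the 10 widest sites overall and among distant promoters without an island. The members and lists were chosen with earlier results of these data known. Of the listed symbols, Peg13, Oip5os1, Tunar, Pnky and Sox1ot matched no gene of the 4 types. Levels of RNA and of H3K4me1 were not analysed here.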

Additional observations from a re-analysis of the deposited data

How the results depend on the processing

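No paired analysis was possible because sites carry no replicate number, and no replicate could be left out. Over 13 results, 41 alternatives were computed, 4 of them, without chromosome Y, chosen after seeing the data. Of these, 5 moved a value by less than its interval and 36 by more. Shares and widths carry no sign, so only the downstream excess in coverage could have reversed, and it stayed positive. The cause of the moves was not tested beyond what each alternative itself changes.

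The overall share of 39.3% was 37.8% with at least 200 bp covered, 25.4% with the TSS base covered, 35.1% and 45.8% in windows of 500 bp and 2 kb, 40.7% at any annotated TSS, 36.7% with further non-coding types, 41.9% on autosomes and 41.6% without chromosome Y. With sites of at least 500 bp it was 33.8%. By type this gave 25.0% for lincRNA, 42.4% for antisense and 52.5% for processed_transcript, with 83.9% for island and 22.3% for other promoters. By distance it gave 79.5%, 42.9%, 26.8% and 17.5% from the nearest class to the farthest. Without promoters within 1 kb of a coding TSS the overall share was 29.9%, with 27.2% for lincRNA, 34.0% for antisense, 42.4% for processed_transcript and 100% of 6 for bidirectional_promoter_lncRNA genes, 75.2% with and 26.9% without an island. The downstream excess was then 1.76 points. Islands of at least 500 bp gave 89.6% and 31.7%. Using the most 5′ coding TSS alone gave 85.2%, 55.9% and 24.8% within 1 kb, at 1 to 5 kb and beyond 50 kb. Without chromosome Y the values were 33.9% for lincRNA, 30.3% without an island and 26.5% beyond 50 kb. The median width was 1114 bp over all sites at promoters and 2180 bp with sites within 1 kb merged.

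The site list limits what can be said. H3K4me1 below the threshold of the peak caller is not in it, it holds no measure of the height of a site, and it gives no library or time.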
